A study of Homo sapiens with 6 samples.

Results

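The sirtuins are 7 genes, SIRT1 to SIRT7, found by symbol among the 60612 genes of a table of transcript levels from ARPE-19, an established human cell line of retinal pigment epithelium. Each of the 7 symbols matched 1 gene. One group had received miR-204-5p by transfection (3 libraries, labelled over expressed) and the other miR-NC, the control (3 libraries), with no other treatment named for either. The libraries are described as biological replicates of poly(A) RNA read as paired ends. The series was made to look for targets of miR-204-5p, and SIRT1 is a reported one.

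Sirtuins are enzymes that use NAD+ to remove acetyl or longer acyl groups from lysines of proteins, so their activity depends on the cell's NAD+ supply. SIRT1, SIRT6 and SIRT7 work mainly in the nucleus, SIRT2 mainly in the cytosol, and SIRT3, SIRT4 and SIRT5 in mitochondria. In the pigment epithelium, a tissue under constant oxidative load, SIRT1 is known for restraining inflammatory and stress signalling. A microRNA pairs through its seed, bases 2 to 8, with sites in 3' UTRs, and usually lowers the level of the messenger RNA or its translation.

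The mature microRNA and its paralogue miR-211-5p, which has the same seed, are shown because the seed fixes the sites searched. Both are RefSeq sequences on GRCh38.p14, 5' to 3', with the seed in capitals. The former lies at chr9:70810031-70810052 and the latter at chr15:31065095-31065116, both on the minus strand.
miR-204-5p: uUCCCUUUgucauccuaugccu
miR-211-5p: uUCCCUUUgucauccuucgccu

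The longest annotated 3' UTR of each sirtuin (GENCODE release 29, GRCh38) was searched on the transcript strand for AAAGGGAA (8mer), AAAGGGA (7mer-m8), AAGGGAA (7mer-A1) and AAGGGA (6mer), each match counted once in its longest class. SIRT1 and SIRT3 held matches, and SIRT2, SIRT4, SIRT5, SIRT6 and SIRT7 held none of these letters in that window. Matches are shown with up to 11 bases on either side, the seed match in capitals. That of SIRT1 lies at chr10:67916977-67916984 on the plus strand. Those of SIRT3 lie on the minus strand at chr11:216138-216144 (7mer-m8) and chr11:216107-216114 (8mer).
SIRT1 8mer: taaattaatgtAAAGGGAAcagctaatcta
SIRT3 7mer-m8: ttagtctcctcAAAGGGActgcaggtgtt
SIRT3 8mer: acatgagttggAAAGGGAAccctgggatac

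The SIRT1 match starts at base 384 of a 3' UTR of 1797 bases and was present in all 4 coding transcripts with an annotated 3' UTR. The SIRT3 matches start at bases 554 and 584 of 1240 and were present in 1 of 5 such transcripts, as annotated. Which 3' ends the SIRT3 messages of these cells have was not measured. The longest UTR of the family, 3293 bases in SIRT5, held no match. Among 10835 tested genes with an annotated 3' UTR, 8.65% held an 8mer and 18.7% an 8mer or a 7mer-m8. A match is a run of letters and was not tested as a binding site.

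**Figure D1:**
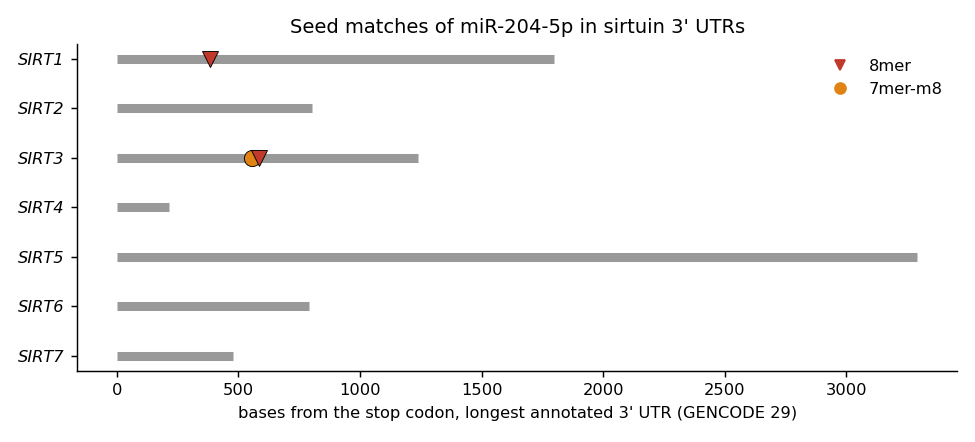
Longest annotated 3' UTR of each sirtuin, drawn to scale in bases from the stop codon, with seed matches of miR-204-5p marked by class. Matches are seen in SIRT1 (base 384) and SIRT3 (bases 554 and 584), and the other UTRs are bare.

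The 6 libraries held the equivalent of about 19000000 to 23300000 read pairs, estimated from the smallest steps in the values, so these depths are rough. Levels are FPKM, a fragment count divided by transcript length and library size, so that genes can be compared with each other. The leading principal component of the tested genes carried 54.1% of the variance. Both replicate 3 libraries lay at one end of it (-41.1 for miR-204-5p and -32.4 for miR-NC), followed by replicate 1 of miR-204-5p at -15.3. The other 3 libraries lay between 26.1 and 33.1, so the groups did not separate. RNAs without a poly(A) tail (5 found of 9 listed, summed) stood at 2813 FPKM in replicate 3 of miR-204-5p and between 90.9 and 164 FPKM elsewhere. Of 13 pigment epithelium markers 5 stayed below 0.5 FPKM in every library, among them RPE65 of the visual cycle (at most 0.029) and TYR, tyrosinase (0), while the keratins KRT8 and KRT18 exceeded 100 FPKM throughout. Of the same list, BEST1 ran from 3.13 to 7.54 FPKM, RLBP1 from 2.57 to 5.66 and OTX2 from 3.21 to 9.70. SERPINF1 ran from 2.43 to 4.57 FPKM, MITF from 0.95 to 2.10 and PMEL from 0.16 to 0.62. Of 13 markers of photoreceptors, neurons, glia, endothelium and immune cells, 11 stayed below 0.5 FPKM, and CD68, a lysosomal protein used as a macrophage marker, stood at 24.6 to 39.8 FPKM. PTPRC, an immune cell marker, ran from 0.29 to 0.51 FPKM. The summed level of the latter list ran from 25.5 to 40.7 FPKM with miR-204-5p and from 29.8 to 39.0 FPKM with miR-NC.

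All 7 sirtuins were detected in all 6 libraries. SIRT6 was the most abundant, with a mean of 11.8 FPKM ± 2.89 (SD over 6 libraries), followed by SIRT2 at 8.02 ± 0.90 and SIRT7 at 5.24 ± 0.97. SIRT3 stood at 1.93 ± 0.42 FPKM, SIRT5 at 1.11 ± 0.19, SIRT1 at 0.92 ± 0.27 and SIRT4 at 0.79 ± 0.21. The order SIRT6, SIRT2, SIRT7, SIRT3, SIRT5 held within every library, since each stood above the next in all 6. The ranges of SIRT6 and SIRT2 over libraries overlapped, those of SIRT2, SIRT7, SIRT3 and SIRT5 did not. SIRT5, SIRT1 and SIRT4 had overlapping ranges and traded places: SIRT5 was above SIRT1 in 5 libraries and SIRT1 above SIRT4 in 4, so their order lies within the spread. SIRT6 and SIRT2 together made up 61.1% to 68.4% of the summed sirtuin FPKM per library, and SIRT1, the best known member, 1.72% to 4.91%.

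**Figure D2:**
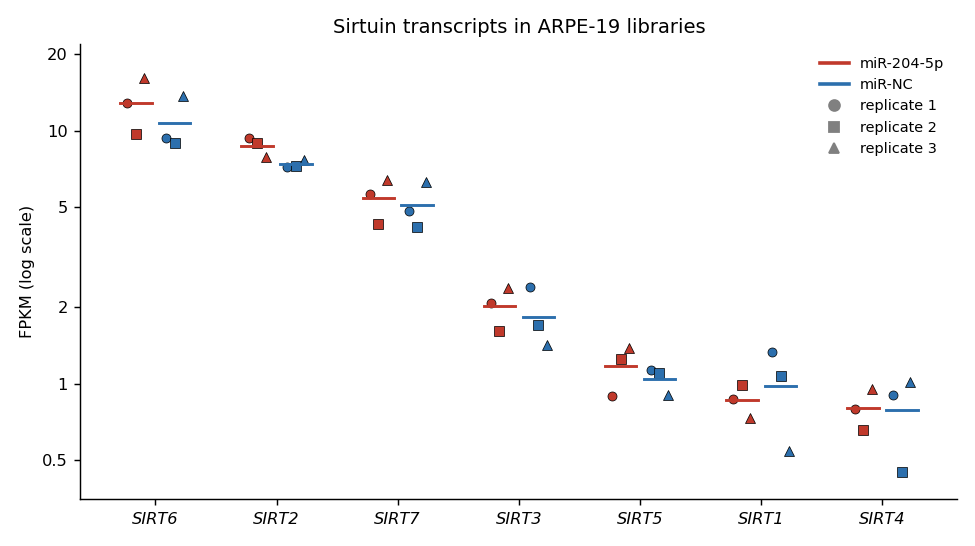
FPKM of each sirtuin on a log axis, 1 point per library, shape by replicate number, colour by group, lines at group means (n = 3). The members span from SIRT6 (mean 11.8) to SIRT4 (mean 0.79), and the groups overlap for every member except SIRT2.

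No sirtuin passed the test between miR-204-5p and miR-NC. With limma on log2(FPKM + 1) over 13151 genes, 0 of 7 sirtuins had an adjusted p under 0.05, against 0% of all tested genes (0 genes). At an unadjusted p under 0.05 there were 0 of 7 sirtuins, against 2.08% of tested genes (273 genes). The 7 log2 fold changes, miR-204-5p minus miR-NC, ran from -0.07 to 0.24 with a median of 0.09, beside a median of -0.02 over all tested genes. Medians by class of base composition and transcript length differ from the latter and are given below. All 7 adjusted p-values were 1.00 (limma, Benjamini-Hochberg). In these bulk libraries fewer cells that carry a transcript and less of it per cell cannot be told apart.

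SIRT1 (ENSG00000096717, chr10:67884669-67918390, plus strand, GRCh38 here and below) deacetylates histones and regulators such as FOXO factors and RELA. It stood at 0.871, 0.990 and 0.732 FPKM in replicates 1, 2 and 3 of miR-204-5p, and at 1.33, 1.07 and 0.544 FPKM in those of miR-NC. The groups overlapped: both the highest and the lowest value were miR-NC libraries, and the miR-204-5p values lay between them. Means were 0.864 ± 0.130 and 0.981 ± 0.401 FPKM (SD, n = 3 each). The log2 fold change was -0.07 (limma), and its 95% limits, -0.51 to 0.37, hold both a fall and a rise of that size. The direction turned to 0.059 without miR-NC replicate 1, which held the highest value. It was -0.24 without miR-NC replicate 3, which held the lowest. Its values rest on few reads, roughly 46 to 120 pairs in a library.

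SIRT6 (ENSG00000077463, chr19:4174109-4182604, minus strand) acts on chromatin, in DNA repair and in the control of glycolytic genes. It stood at 12.8, 9.69 and 16.1 FPKM in replicates 1, 2 and 3 of miR-204-5p and at 9.37, 8.97 and 13.8 FPKM in those of miR-NC. The 3 highest values were replicates 3 and 1 of miR-204-5p and replicate 3 of miR-NC, so the groups overlapped. The log2 fold change was 0.24 with limits of -0.34 to 0.82 (limma), the widest of the family on the log2(FPKM + 1) scale. With a pseudocount of 0.1 its limits were -0.37 to 0.89, narrower than those of SIRT1 and SIRT4 at that setting. On the main scale the log2 fold change was 0.077 with replicate 3 of miR-204-5p left out and 0.42 with replicate 3 of miR-NC left out. The former library is also the one with 2813 FPKM of RNAs that lack a poly(A) tail, and their part in the SIRT6 and SIRT7 values was not tested.

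SIRT7 (ENSG00000187531, chr17:81911939-81921323, minus strand) is a nucleolar enzyme linked to ribosomal RNA synthesis. It stood at 5.59, 4.27 and 6.38 FPKM with miR-204-5p and at 4.80, 4.17 and 6.24 FPKM with miR-NC. Replicate 2 was the lowest and replicate 3 the highest library in both groups, and the group means differed by less than their SDs. Its log2 fold change was 0.08 with limits of -0.42 to 0.58 (limma), and its sign turned without miR-204-5p replicate 3 (-0.027) or without miR-NC replicate 2 (-0.028). Its gene overlaps MAFG on the same strand over 3054 bases, so reads there could be assigned to either. MAFG, a small Maf transcription factor, ran from 1.82 to 10.8 FPKM with both extremes in miR-NC, and its part in the SIRT7 values was not tested.

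SIRT2 (ENSG00000068903, chr19:38878555-38899862, minus strand) removes acetyl groups from tubulin and other cytosolic proteins. It stood at 9.35, 8.90 and 7.86 FPKM in replicates 1, 2 and 3 of miR-204-5p and at 7.19, 7.22 and 7.63 FPKM in those of miR-NC. The 3 values with miR-204-5p were above the 3 with miR-NC, and the replicate 3 libraries of the groups lay closest to each other. Such a clean separation upward was seen in 1 of 7 sirtuins and in 3.77% of tested genes, and downward in 0 of 7 and 2.17%. Means were 8.70 ± 0.76 and 7.35 ± 0.25 FPKM (SD, n = 3 each), and the log2 fold change was 0.21 with limits of -0.14 to 0.57 (limma, unadjusted p = 0.20). It stayed between 0.17 and 0.28 when single libraries were left out. SIRT2 overlaps NFKBIB, an inhibitor of NF-kB, on the opposite strand over 163 bases. The libraries were strand-marked, and no source used here says whether counting took the strand into account. NFKBIB stood at 11.5, 6.97 and 10.6 FPKM with miR-204-5p and at 8.50, 6.73 and 5.31 FPKM with miR-NC, with overlapping groups.

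SIRT3 (ENSG00000142082, chr11:215458-236931, minus strand) is the main deacetylase of the mitochondrial matrix, where it activates SOD2 and other enzymes. It stood at 2.09, 1.62 and 2.38 FPKM with miR-204-5p and at 2.41, 1.70 and 1.42 FPKM with miR-NC. The highest and the lowest values were both miR-NC libraries. With its 8mer and 7mer-m8 matches, SIRT3 had a log2 fold change of 0.10 with limits of -0.37 to 0.57 (limma), the miR-204-5p mean being the higher at 2.03 against 1.84 FPKM. The sign turned to -0.011 without miR-NC replicate 3. The values sum all SIRT3 transcripts, so any messages with and without the matches are not separated. SIRT3 overlaps PSMD13, a proteasome subunit at 19.4 to 29.7 FPKM, over 386 bases on the opposite strand.

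SIRT4 (ENSG00000089163, chr12:120302316-120313249, plus strand) is a mitochondrial enzyme that restrains glutamate dehydrogenase. It stood at 0.790, 0.657 and 0.95 FPKM with miR-204-5p and at 0.902, 0.447 and 1.02 FPKM with miR-NC. Its mean was the lowest of the family, though it stood above SIRT1 in both replicate 3 libraries. It rested on roughly 13 to 26 read pairs in a library, for a transcript of 1217 bases, and its groups overlapped. Its log2 fold change was 0.02 with limits of -0.38 to 0.42 (limma), and it turned to -0.040 with replicate 3 of miR-204-5p left out and to -0.127 with replicate 2 of miR-NC left out. SIRT5 (ENSG00000124523, chr6:13574529-13615158, plus strand) removes succinyl, malonyl and glutaryl groups. It stood at 0.895, 1.25 and 1.39 FPKM with miR-204-5p and at 1.13, 1.10 and 0.905 FPKM with miR-NC. Replicate 1 of miR-204-5p was the lowest library for SIRT5, just below replicate 3 of miR-NC, and replicates 2 and 3 of miR-204-5p were the highest. Its log2 fold change was 0.09 with limits of -0.27 to 0.45 (limma). With single libraries left out it ran from 0.016 (replicate 3 of miR-204-5p) to 0.18 (replicate 1 of miR-204-5p), and it was -0.034 without replicate 3 of both groups.

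**Figure D3:**
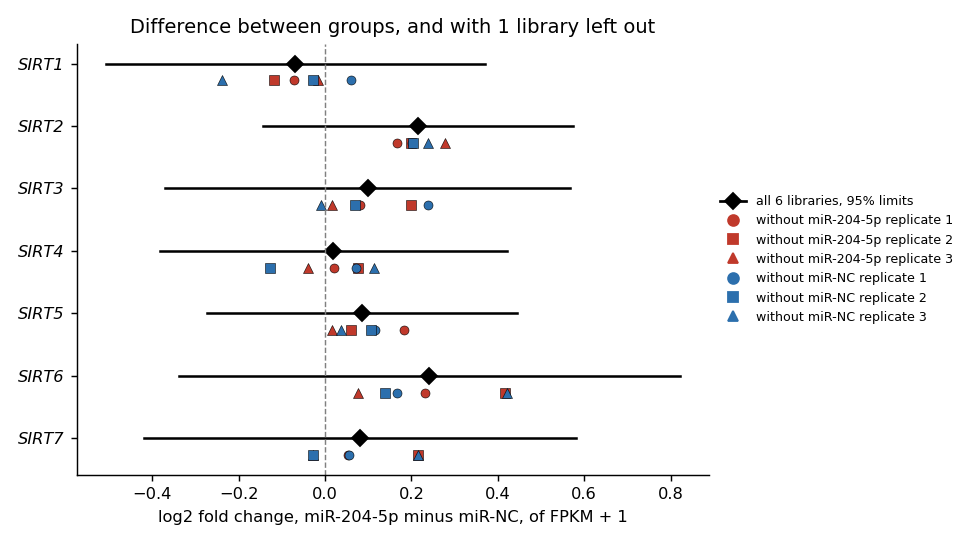
Log2 fold change of FPKM + 1, miR-204-5p minus miR-NC, for each sirtuin: black diamonds with 95% limits from all 6 libraries, coloured points below with 1 library left out. Every interval includes 0, and SIRT2 and SIRT6 are the members with the largest values (0.21 and 0.24).

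The limits give the range of differences that these libraries allow. The lower limits of the 7 members lay between -0.51 (SIRT1) and -0.14 (SIRT2), and the upper limits between 0.37 (SIRT1) and 0.82 (SIRT6), all on the log2(FPKM + 1) scale, which understates changes of members near 1 FPKM. With a pseudocount of 0.1 the limits of SIRT1 widened to -0.98 and 0.78 around -0.10. Those of SIRT4 widened to -0.81 and 0.94, of SIRT3 to -0.52 and 0.82 and of SIRT5 to -0.50 and 0.79. Those of SIRT2, SIRT6 and SIRT7 widened less. In the authors' deposited table the 7 sirtuins had fold ratios from 0.881 (SIRT1) to 1.20 (SIRT6). Their p-values in the authors' deposited table ran from 0.465 (SIRT2) to 0.967 (SIRT4), all 7 q-values were 1, and none was marked as changed.

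Except for SIRT2, each member's group means differed by less than the larger of the group SDs, and several members shared an order of libraries. Relative to its mean over the libraries, SIRT6 stood at 0.45 and 0.24 log2 units in replicate 3 of miR-204-5p and of miR-NC, and at -0.23 and -0.33 in replicate 2. SIRT7 followed the same order, at 0.26 and 0.23 in replicate 3 and -0.23 and -0.26 in replicate 2. SIRT4 stood at 0.13 and 0.18 in replicate 3 and at -0.11 and -0.30 in replicate 2. SIRT1 moved the other way, at -0.14 and -0.30 in replicate 3 and 0.063 and 0.12 in replicate 2. SIRT2, SIRT3 and SIRT5 had no shared order with these.

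The ratio of SIRT6 to SIRT1, which does not depend on how a library was scaled, shows the same. It was 14.7, 9.78 and 22 in replicates 1, 2 and 3 of miR-204-5p and 7.04, 8.41 and 25.3 in those of miR-NC. Replicate 3 was the highest in each group, and the groups overlapped over nearly their whole range. Over the 6 libraries SIRT6 and SIRT7 correlated at 0.96 (Pearson, log2 values) and SIRT1 and SIRT6 at -0.81, given as a description of 6 libraries that share the main axis of variation.

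**Figure D4:**
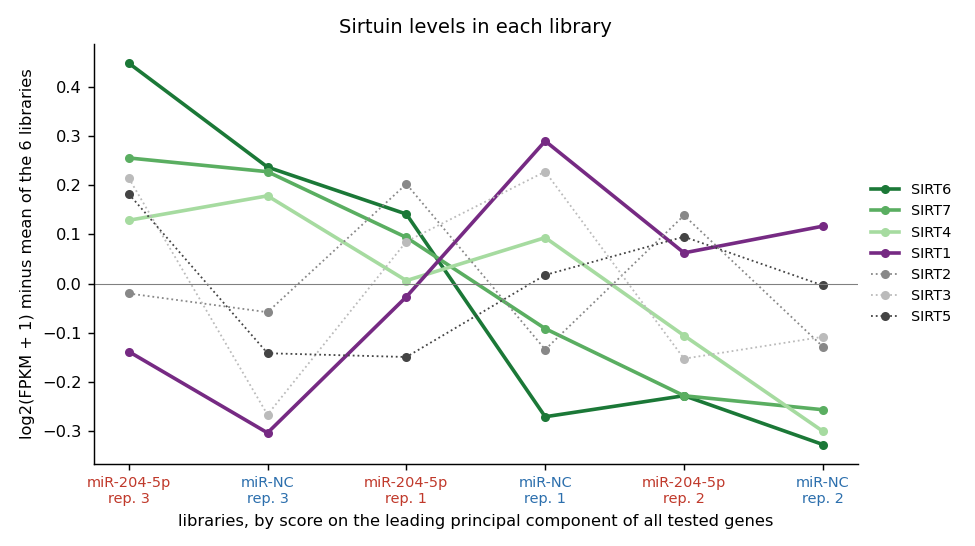
Each sirtuin's log2(FPKM + 1) minus its mean over the 6 libraries, with libraries ordered by the leading principal component. SIRT6, SIRT7 and SIRT4 (green) are high in both replicate 3 libraries and low in both replicate 2 libraries, SIRT1 (purple) is the reverse, and group labels (red miR-204-5p, blue miR-NC) alternate along the axis.

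The transcripts of these members differ in length and base composition. The SIRT1 transcript with the longest 3' UTR has 4094 bases and 40.5% G or C, that of SIRT6 1361 bases and 64.6%, and that of SIRT7 1743 bases and 61.9%. When tested genes with an annotated 3' UTR were split into 3 classes of G and C content, the lowest class had a median log2 difference, replicate 3 minus replicate 2, of -0.39 within miR-204-5p and -0.41 within miR-NC. In the highest class it was 0.097 and 0.17. For SIRT1 the same differences were -0.20 and -0.42, for SIRT6 0.68 and 0.57 and for SIRT7 0.48 in both groups. SIRT2 (58.7% G or C) and SIRT3 (57.5%), both in the highest class, had -0.16 and 0.070, and 0.37 and -0.16. In the middle class, with medians of -0.24 and -0.20, SIRT4 (51.3%) had 0.23 and 0.48 and SIRT5 (48.2%) had 0.088 and -0.14. SIRT4 and SIRT5 thus lay above the medians of their class in both groups, as SIRT6 and SIRT7 did in theirs. SIRT2 lay below in both groups, and SIRT1 and SIRT3 lay above within miR-204-5p only. In 3 classes of transcript length the same medians were 0.14 and 0.16 in the shortest (up to 2309 bases). They were -0.25 and -0.22 in the middle class and -0.40 and -0.39 in the longest. SIRT2 (1912 bases), SIRT4 (1217), SIRT6 and SIRT7 were in the shortest class. SIRT1 and SIRT3 (2543) were in the middle class and SIRT5 (4382) in the longest. For miR-204-5p minus miR-NC the class medians were -0.079, -0.024 and 0.054 from the lowest to the highest G and C content. By length they were 0.076, -0.038 and -0.084 from the shortest to the longest class. The part of base composition or length in the sirtuin values was not tested, and the classes of both kinds were chosen after the values were seen.

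The genes whose pattern over the 6 libraries was most like that of SIRT1 were TFG, ROCK2 and PRMT9, with Pearson correlations of log2 values of 0.991, 0.991 and 0.989. The nearest gene to SIRT6 was NUDT22 (0.997), to SIRT7 AC090617 (0.995) and to SIRT2 VIM, vimentin (0.998). For SIRT3 it was MT-RNR2 (0.978), for SIRT4 PUS1 (0.980) and for SIRT5 ACTRT3 (0.993). Of the 13151 tested genes 733 exceeded a correlation of 0.9 with SIRT1, 887 with SIRT6 and 888 with SIRT7, and 37 to 98 with the other 4 members. The nearest genes are the highest of 13151 correlations over only 6 libraries, and such a selection alone gives high values. They are a description, and how many genes would exceed 0.9 by chance was not tested.

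Genes that supply NAD+, use it, control SIRT1 or are sirtuin substrates were read from the same fit, together with the zinc-dependent deacetylases, the other family of lysine deacetylases. Of 78 such genes in 6 lists 66 were tested, and 0 rose and 0 fell (limma, adjusted p under 0.05), against 0% of all tested genes. None reached an unadjusted p under 0.05, beside 2.08% of all tested genes. Among 11 genes tested for NAD+ supply the median log2 fold change was -0.02. NAMPT, the rate-limiting enzyme of NAD+ salvage, stood at 15.6 ± 5.25 and 19.1 ± 4.99 FPKM (SD, n = 3 each, miR-204-5p first here and below), and NMNAT1, which makes nuclear NAD+, at 1.82 ± 0.20 and 1.87 ± 0.39. For 8 other NAD+ users the median was 0.03, and PARP1, the main poly(ADP-ribose) polymerase, stood at 7.70 ± 2.94 and 7.82 ± 2.81 FPKM. NAMPT and PARP1 were lowest or near it in replicate 3 of both groups, as SIRT1 was.

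For 11 regulators of SIRT1 the median log2 fold change was 0.05. CCAR2, which binds and inhibits SIRT1, had 0.05, RPS19BP1, an activator, 0.05, USP22, a deubiquitinase that stabilises it, -0.02, and ELAVL1, which binds its message, 0.15. HIC1, a transcriptional repressor of SIRT1, stood at 7.46, 5.93 and 7.25 FPKM with miR-204-5p and at 5.51, 4.78 and 5.80 FPKM with miR-NC. Its 3 miR-204-5p values were all above those of miR-NC, narrowly, with a log2 fold change of 0.31 and limits of -0.09 to 0.71 (limma, unadjusted p = 0.112, adjusted p = 1.00). Over the 6 lists 2 of 66 tested genes separated upward in this way, HIC1 and MLYCD, a mitochondrial malonyl-CoA decarboxylase, beside 3.77% of all tested genes, and 0 of 66 downward.

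For 14 tested nuclear and cytosolic substrates the median log2 fold change was -0.16, with 9 negative and 5 positive, beside 6979 negative and 6172 positive among all tested genes. FOXO1 and FOXO3, stress-responsive transcription factors, had -0.22 (limits -0.76 to 0.32) and -0.61 (limits -1.47 to 0.24), and RELA, an NF-kB subunit, had -0.12 (limits -0.89 to 0.64). For FOXO3 replicate 1 of miR-204-5p held 1.20 FPKM against 4.05 and 3.48 in the other two, and the log2 fold change was -0.24 with that library left out. The sign for RELA turned when replicate 2 of miR-204-5p (0.067) or replicate 3 of miR-NC (0.068) was left out. PPARGC1A, a coactivator of mitochondrial genes, was below the filter at 0.10 ± 0.02 and 0.13 ± 0.03 FPKM. For 13 tested mitochondrial substrates the median was -0.05. SOD2, the matrix superoxide dismutase, had 0.18, IDH2, a source of mitochondrial NADPH, -0.05, GLUD1, glutamate dehydrogenase, -0.18 (0.039 with replicate 3 of miR-204-5p left out) and CPS1, carbamoyl phosphate synthetase, -0.10.

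Among 9 tested zinc-dependent deacetylases the median log2 fold change was -0.05, beside 0.09 for the sirtuins. HDAC1 stood at 11.5 ± 3.07 and 15.7 ± 1.9 FPKM (log2 fold change -0.45, limits -0.97 to 0.08), HDAC2 at 5.59 ± 1.22 and 5.85 ± 1.12, and HDAC3 at 9.11 ± 1.38 and 15.1 ± 7.51, where miR-NC replicate 3 held 23.7 FPKM. The log2 fold change of HDAC3 was -0.58, and -0.23 with that library left out, and that of HDAC1 was -0.27 with replicate 3 of miR-204-5p left out. No difference between the families was tested.

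**Figure D5:**
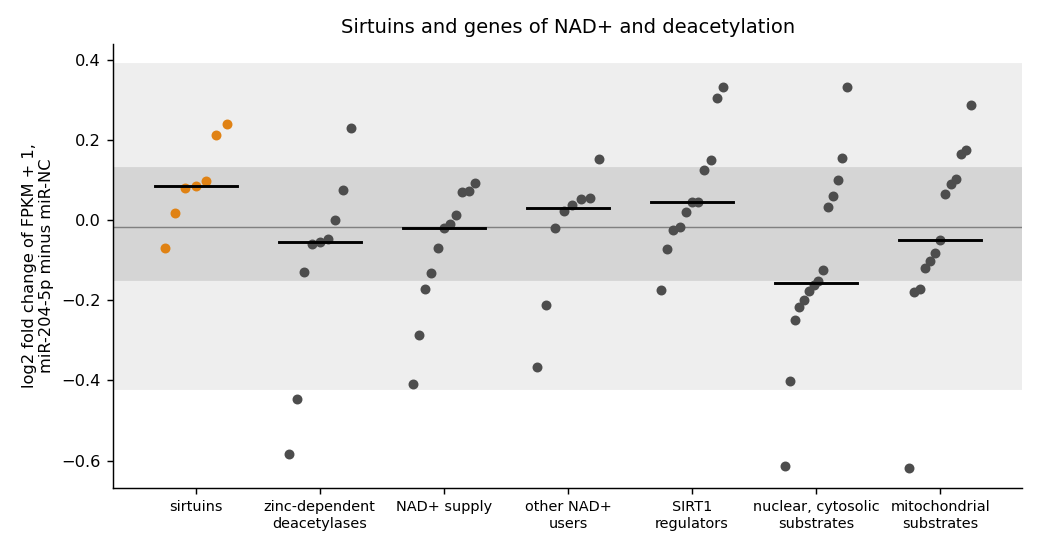
Log2 fold change of FPKM + 1, miR-204-5p minus miR-NC, for each tested gene of the sirtuins (orange) and 6 related lists, with black lines at list medians. Grey bands span the 25th to 75th and the 5th to 95th percentiles of all 13151 tested genes, and the 7 sirtuins lie between -0.07 and 0.24, within the wider band.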

How the data were processed

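The 6 libraries of ARPE-19 RNA, 3 per group, were grouped by their titles. The deposited FPKM values came as 1 column per library, with 0.0001 in the place of 0, which was read as 0. The submitters' processing notes name GRCh38 and, with no role for any, DESeq2, edgeR, StringTie 1.3.4d, HISAT2 2.0.4 and cutadapt 1.9. They name no annotation. For each gene the authors' deposited table adds a fold ratio, its log2, a p-value and a q-value.

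Genes reaching 0.5 FPKM in 3 or more libraries (13151 of 60612, all 7 sirtuins among them) were fitted with limma 3.58.1 (R 4.3.3, intensity trend, two-sided) on log2(FPKM + 1) without covariates. P-values were adjusted over these genes by Benjamini-Hochberg, with a threshold of 0.05. Limits are 95% limits of that fit, and a fold change on this scale understates changes of low genes. The fit was tested on simulated data with 200 changed genes. Noise there was independent between libraries, and the planted changes were larger than that of any sirtuin. The changed genes had levels above those of SIRT1, SIRT3, SIRT4 and SIRT5, so that run does not show what the fit would find for the sirtuins. Nothing in the files shows separate cultures beyond the submitters' word, so p-values measure the spread between these libraries.

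Members, lists and tests were chosen with earlier results of these data known. The named genes are the 7 sirtuins, 20 fixed genes of the lists (1 is not reported here), any list gene past the threshold (none), and the genes most correlated with a sirtuin. Others, such as CD68, RPE65, MLYCD and overlapping neighbours, were named after their values were seen, and leaving out libraries for list genes was added then too. Transcripts and UTRs came from GENCODE release 29 (GRCh38) and microRNAs from RefSeq (GRCh38.p14), with Python 3.11.15 and numpy 2.4.6. Depth was read from the smallest steps of FPKM multiplied by length, over genes with 1 transcript, and equivalents in read pairs use the length of the transcript with the longest 3' UTR. Depth estimates are rough and cover no error beyond counting.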

Additional observations from a re-analysis of the deposited data

How the results depend on the processing

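No sirtuin and no gene of the related lists passed the adjusted test (limma) under any alternative run: median-of-ratios scaling, quantile normalization, a pseudocount of 0.1, no filter, a filter at an FPKM of 1, no intensity trend, a replicate block, and leaving out each library. Over the whole table the count of calls was 0, and 0 to 3 when single libraries were left out (3 without miR-204-5p replicate 2, none a sirtuin), and the cause was not tested. At the unadjusted threshold of 0.05 there were 273 genes, with a range of 163 to 753 over the left-out libraries and 731 without a filter. Leaving out replicate 3 of both groups was added after seeing the data and gave 0 calls. Of 96 values of single sirtuins under these alternatives, 88 kept their direction and 8 turned. No filter, a filter at an FPKM of 1, no intensity trend and the replicate block do not change the estimate itself. Under those settings no direction could turn, so the 88 include values fixed in advance. Over single left-out libraries SIRT1 ran from -0.24 to 0.059, SIRT3 from -0.011 to 0.24, SIRT4 from -0.13 to 0.11, SIRT5 from 0.016 to 0.18 and SIRT7 from -0.028 to 0.22. SIRT4 turned without miR-204-5p replicate 3 (-0.040) and miR-NC replicate 2 (-0.127), and SIRT7 without the same libraries (-0.027 and -0.028). Without replicate 3 of both groups SIRT3 was -0.094 and SIRT5 -0.034; the cause was not tested. At a filter of 1, SIRT1 and SIRT4 were not tested.

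With the replicate block 0 genes were called, 941 had an unadjusted p under 0.05, and the sirtuin with the smallest p was SIRT6 (log2 fold change 0.24, limits -0.07 to 0.55, limma adjusted p = 0.661). Between libraries of one number, deviations from group means had correlations of 0.042 (replicate 1), 0.55 (replicate 2) and 0.52 (replicate 3). Between libraries of different numbers they ran from -0.61 to 0.32. Replicates 2 and 3 thus shared deviations across the groups, and replicate 1 hardly did. The main fit did not pair the libraries by number, and what the numbers stand for was not tested. The depth limits SIRT4 and SIRT1 most, at about 13 and 46 read pairs in their lowest libraries.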
